A study of Mus musculus with 11 samples.

Results

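The 37 nuclear receptor genes described here are the members of the mouse family that remain when the Nr4a group and the retinoid receptors are left aside. They were selected on the ATAC-seq peaks of the 5 libraries. Peak rows overlapping the genes or 10 kb on each side were taken, promoter rows were kept apart from distal rows, and the genes were sorted by whether they were open in both cell types, in dopaminergic (DA) neurons only or in neither. The family was thus chosen by the same scores that are reported below, so its classes are a description and carry no test. The 37 genes are a small part of the 22380 protein-coding genes of the annotation, and all 37 were found in it.

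ATAC-seq marks open chromatin, because a transposase inserts adapters where DNA is accessible and the places with many insertions are called as peaks. DA neurons were sorted by FACS as GFP-positive cells from the ventral mesencephalon of E14.5 embryos of TH-GFP mice, a line kept on C57BL/6J in which the Th promoter drives GFP (3 libraries). Serotonergic (5-HT) neurons were sorted as YFP-positive cells from hindbrain rhombomeres of E14.5 embryos of Mash1-CRE x ROSA YFP mice (2 libraries). Males of either line had been crossed to Swiss wild-type females, embryos were pooled, and no treatment was given. No strain background is given for the Mash1-CRE x ROSA YFP line. Each 5-HT library was made from fewer sorted cells than any DA library. The mouse line, the reporter, the brain region and the number of sorted cells differ together with the cell type. They cannot be told apart from it. The study stained sorted cells for Th in the GFP line and for Tph2 in the YFP line to check what had been sorted.

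Nuclear receptors are transcription factors with a zinc-finger domain that binds DNA and a pocket that, in many members, binds a lipid-soluble ligand such as thyroid hormone, a steroid, an oxysterol or a fatty acid. Most bind copies of a short half-site, singly, as homodimers or together with a retinoid X receptor, and they recruit corepressors or coactivators depending on the ligand. In the developing midbrain, liver X receptors are known for their part in the birth of DA neurons, and the oestrogen, glucocorticoid and thyroid hormone receptors mediate hormone effects on the brain.

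The deposited data list the same 131942 rows for every library, each with a score that is 0 in a library without a peak there. No source used here names the scale of the score, so percentiles among the peaks of a library are given beside some scores. The rankings by lowest score, fixed in advance, do set raw scores of several libraries side by side. A peak was present in 52861, 93055 and 94351 rows in DA replicates 1, 2 and 3, and in 38772 and 22879 rows in 5-HT replicates 1 and 2. Both 5-HT libraries therefore had fewer peaks than any DA library. The read depth is unknown, and in bulk libraries a peak found in few cells and a weak peak in all cells cannot be told apart. In this design 3 libraries are set against 2, where a two-sided exact permutation test cannot go below p = 0.2.

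The labelled cell types were checked at the promoters of marker genes. Th, the rate-limiting enzyme of dopamine synthesis, had scores of 9.91, 10.6 and 8.45 in the DA libraries and was closed in both 5-HT libraries, and Lmx1a, a DA lineage factor, had 5.00, 5.62 and 4.09 and no 5-HT peak. The other 6 of the 8 DA markers were also open in a 5-HT library, 4 of them in all 5 libraries. Of the 6 5-HT markers, Tph2 and Gata3 were open in all 5 libraries, and none was open in both 5-HT libraries alone. Fev, which defines the 5-HT fate, had a peak in 5-HT replicate 1 only (3.88), and Gata2 had one in DA replicate 2 (3.11) and 5-HT replicate 1 (4.20). The promoter of the serotonin transporter gene Slc6a4 was open in the 3 DA libraries (4.80, 6.56 and 3.76) and closed in both 5-HT libraries, so this marker did not follow the labels. Lmx1b had scores of 6.00, 7.62 and 6.01 in the DA libraries, 4.44 in 5-HT replicate 1 and no peak in 5-HT replicate 2. The names DA and 5-HT are used here for the libraries as labelled.

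Other cell types were also represented among open promoters. All 4 markers of progenitors and radial glia (Sox2, Hes5, Fabp7, Nes) were open in all 5 libraries, as were 2 of 3 GABAergic markers and 2 of 3 markers of the oligodendrocyte lineage. None of the 3 microglial markers, 2 blood markers and 2 liver markers had a promoter peak in any library. Among the 3 endothelial markers, Cldn5 alone was open, in every library but 5-HT replicate 2. Of the glutamatergic and noradrenergic markers, Slc17a6 was open in the same 4 libraries, Phox2a in DA replicate 3 alone, and Slc17a7 and Dbh in none. The muscle gene Myog had a peak in DA replicate 1 and Myod1 had none. All 3 astrocyte markers and both pericyte markers had a peak in at least 1 library and in no case in all 5. The part of these cells in the openness of the receptor genes was not tested.

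A promoter was counted as open in a library when a row with a peak touched the stretch from 1 kb upstream to 100 bp downstream of any TSS of the gene. On this definition 22 of the 37 members were open in all 5 libraries (59.5%, 95% Wilson interval 43.5 to 73.7%, which covers counting error only), beside 48.4% of all protein-coding genes. Another 2 members, Esr2 and Nr2e1, were open in every DA library and closed in both 5-HT libraries, beside 1.98% of all genes. The promoters of 8 members were open in no library, beside 34.9% of all genes, and 5 showed other patterns, beside 14.6%. No member was open in the 2 5-HT libraries alone, as was the case for 0.0134% of all genes. Since these classes chose the members, nothing is read from their difference from the other genes.

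The number of open member promoters followed the order of the replicates by yield only in part. DA replicates 1, 2 and 3 had 29, 29 and 28 open member promoters, and 5-HT replicates 1 and 2 had 26 and 22. The 4 members missing from 5-HT replicate 2 but present in 5-HT replicate 1 are Pparg, Hnf4g, Esrrg and Nr5a1, so 5-HT replicate 2, the library with the fewest peaks, decided their class. Without 5-HT replicate 1 these 4 joined Esr2 and Nr2e1, and 6 members were DA only.

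**Figure D1:**
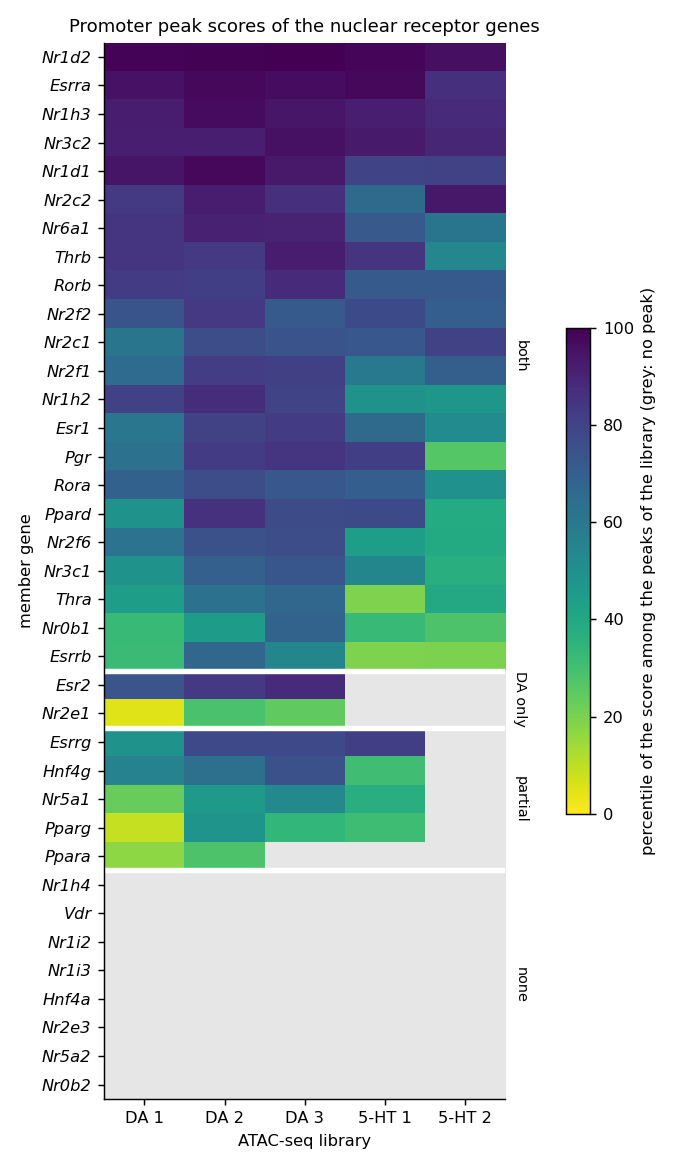
Each line is one of the 37 genes and each column one library, and the colour gives the percentile of the best promoter score among the peaks of that library, with grey for no peak. The 22 genes open in all 5 libraries stand at the top, led by Nr1d2, and the 8 genes without a promoter peak at the bottom.

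Thyroid hormone receptors are ligand-dependent switches that repress their targets without hormone. Both genes were open in all 5 libraries. Thra had its best promoter scores at 4.83, 5.24 and 5.04 in the DA libraries and 3.63 and 3.46 in the 5-HT libraries, and Thrb at 8.55, 7.99 and 9.31 and at 6.73 and 3.78. Thrb stood at percentile 82.9 or higher in each DA library, whereas Thra lay between 44.2 and 66.9 there. Thra overlaps the end of Nr1d1, which is transcribed towards it, and the promoter row of Nr1d1 counts as a distal row of Thra.

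The Rev-erb repressors and the Ror activators compete for the same sites in the circadian clock, and all 4 of their genes were open in all 5 libraries. Nr1d2, which encodes Rev-erb beta, had the highest lowest-library score of the 37 genes, with 16.3, 22.8 and 21.2 in the DA libraries and 10.6 and 7.68 in the 5-HT libraries. These scores stood at percentile 95.9 or higher in every library. Nr1d1, encoding Rev-erb alpha, had 11.5, 16.2 and 9.90 and 6.16 and 5.02. Rora, a factor of cerebellar Purkinje cells, had 6.50, 6.81 and 5.63 in the DA libraries and 5.44 and 3.67 in the 5-HT libraries, and Rorb, known from the retina and cortex, had 8.23, 7.72 and 8.15 and 5.55 and 4.45.

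Among the lipid sensors, the peroxisome proliferator-activated receptors bind fatty acids. Ppard, the broadly expressed form, was open in all 5 libraries (5.06, 8.71 and 6.13, and 5.98 and 3.43). Pparg, the regulator of fat cells, had scores of 3.58, 4.34 and 3.48 in the DA libraries, 3.90 in 5-HT replicate 1 and none in 5-HT replicate 2. Ppara, which controls fatty acid oxidation in liver, had 3.80 in DA replicate 1 and 3.60 in DA replicate 2 and no peak in the other 3 libraries. The peak of Pparg in DA replicate 1 stood at percentile 8.92 of that library, so it is close to the lowest scores that were listed.

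The liver X receptors bind oxysterols, and both of their genes were open in all 5 libraries. Nr1h3 (liver X receptor alpha) reached 10.5, 14.6 and 10.3 in the DA libraries and 7.85 and 5.77 in the 5-HT libraries. Its best row also lies in the promoter of Acp2. A second promoter row, which overlaps no promoter of another gene, was open in all 5 libraries as well (6.69, 4.73 and 5.21, and 4.81 and 3.24). Nr1h2 (liver X receptor beta) had 7.86, 9.04 and 6.50 and 4.43 and 3.62. The bile acid receptor gene Nr1h4 had no promoter peak in any library.

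Receptors for vitamin D and foreign compounds act mainly in gut, liver, kidney and bone. Vdr, Nr1i2 (the pregnane X receptor) and Nr1i3 (the constitutive androstane receptor) had no promoter peak in any of the 5 libraries. Of the 2 Hnf4 genes, which encode regulators of liver and gut, Hnf4a had none either, while Hnf4g had 5.47, 5.32 and 5.90 in the DA libraries, 3.89 in 5-HT replicate 1 and none in 5-HT replicate 2. Nr0b2 (Shp), a receptor without a DNA-binding domain that is a target of the bile acid receptor, and Nr2e3, a photoreceptor factor, had no promoter peak. Together with Nr1h4 and Nr5a2 these are the 8 members without one. Each of the 8 had at least 1 distal row with a peak, so no member was without an open row.

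Nr2e1 encodes Tlx, which keeps neural stem cells in the forebrain and retina in proliferation. Its promoter row on chromosome 10 of mm9, from 42302239 to 42305126, had scores of 3.46, 3.62 and 3.30 in the DA libraries, and neither 5-HT library had a peak. These scores stood at percentiles 4.88, 28.7 and 24.5 of the peaks of their libraries, near the lower end. The row is 2888 bp wide and also overlaps a promoter of Ostm1. Nr2e1 was DA only under the full lists and had no promoter peak when every library was limited to its 22879 highest-scoring rows, the number of 5-HT replicate 2.

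Coup-tf factors pattern the brain and guide neuronal migration, and the 3 genes Nr2f1, Nr2f2 and Nr2f6 were open in all 5 libraries. Nr2f1 had 6.18, 7.76 and 6.69 in the DA libraries and 4.87 and 4.36 in the 5-HT libraries. Its scores in DA replicates 2 and 3 come from a row that also lies in promoters of A830082K12Rik and Gm8327. The other promoter row of Nr2f1 overlaps no promoter of another gene and was also open in all 5 libraries. Nr2f2 had 7.02, 8.09 and 5.51 and 5.97 and 4.39, and Nr2f6 had 5.91, 6.69 and 6.06 and 4.27 and 3.44. The testicular receptors, orphans that bind direct repeats, were open in all 5 libraries as well. Nr2c2 (5.14 in its lowest library) was among the 5 members with the highest lowest-library score, with 8.26, 10.9 and 7.78 in the DA libraries and 5.14 and 6.86 in the 5-HT libraries. Its lowest percentile was 65.3, below the lowest percentiles of Nr1d1 (79.5) and Rorb (71.6), so its place depends on the use of raw scores. Nr2c1 had 5.85, 6.84 and 5.80 and 5.64 and 4.98.

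The 2 oestrogen receptor genes differed in class. Esr1, encoding oestrogen receptor alpha, was open in all 5 libraries (5.83, 7.47 and 6.95, and 5.15 and 3.73). Esr2, encoding oestrogen receptor beta, had scores of 7.00, 8.10 and 8.03 in the DA libraries and none in the 5-HT libraries. The DA scores of Esr2 stood at percentiles 73.8, 83.4 and 87.7, above those of Nr2e1 in every DA library. The row behind them lies on chromosome 12 from 77278920 to 77279189, with its centre 808 bp upstream of the TSS, and not at the TSS itself. A second row at the TSS, from 77277966 to 77278350, had a peak in DA replicates 2 and 3 only (4.33 and 3.23). Esr2 was the member that was DA only also when every library was limited to 22879 rows, beside 0.42% of all protein-coding genes.

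The oestrogen-related receptors are orphans that regulate mitochondrial and energy genes. Esrra had 11.9, 16.1 and 12.3 in the DA libraries and 10.3 and 5.53 in the 5-HT libraries, among the 5 highest of the members open in all 5. Esrrb, a factor of pluripotent and inner ear cells, was among the 3 lowest of them, with 4.27, 5.68 and 4.22 and 3.63 and 3.12. Esrrg had scores of 5.07, 7.10 and 6.27 in the DA libraries, 6.34 in 5-HT replicate 1 and none in 5-HT replicate 2. The score of Esrrg in 5-HT replicate 1 stood at percentile 81.4, so the gene was not weakly open in the 5-HT library where it had a peak.

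Steroid receptors move to the nucleus on hormone binding. Nr3c2, the mineralocorticoid receptor gene, had the second highest lowest-library score, with 10.2, 10.5 and 11.4 in the DA libraries and 8.12 and 5.98 in the 5-HT libraries. The promoter rows of Nr3c2 all lie in a promoter of Gm10649 as well. Nr3c1, the glucocorticoid receptor gene, had 5.06, 5.92 and 5.67 and 4.64 and 3.41, and the progesterone receptor gene Pgr, among the 3 lowest, had 5.98, 7.90 and 7.33 and 6.35 and 3.21. At 22879 rows per library, Nr3c1 became the one member open in the 2 5-HT libraries alone, beside 2.27% of all genes.

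The last group holds factors of gonads, germ cells and early embryos. Nr5a1 (steroidogenic factor) had 3.98, 4.23 and 4.14 in the DA libraries, 4.06 in 5-HT replicate 1 and none in 5-HT replicate 2. Nr5a2 (liver receptor homologue) had no promoter peak, although its gene body held 3 rows open in the DA libraries only. Nr6a1 (germ cell nuclear factor), which lies next to Nr5a1, was open in all 5 libraries with 8.64, 10.2 and 8.77 and 5.56 and 4.01. Nr0b1 (Dax1), which lacks a DNA-binding domain, was the third of the lowest group, with 4.31, 4.18 and 5.16 in the DA libraries and 3.94 and 3.24 in the 5-HT libraries. Its lowest percentile, 28.0, was above that of Thra (19.3), which is not in this group by score.

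At 22879 rows per library, 13 of the 37 members were open in all 5 libraries, beside 38.2% of all genes. They were Thrb, Nr1d1, Nr1d2, Rorb, Nr1h2, Nr1h3, Nr2c2, Nr2f1, Esr1, Esrra, Nr3c2, Pgr and Nr6a1. Another 13 members then had no promoter peak, beside 44.4% of all genes. The 5 that joined the 8 without one were Ppara, Pparg, Hnf4g, Nr2e1 and Nr5a1.

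Distal rows overlap the gene or 10 kb on either side and none of its own promoters. The members had 343 of them, counted once where the windows of 2 members share a row. Introns held 267 rows, exons 14, the upstream flanks 25 and the downstream flanks 37. Only Nr2c2 and Nr0b1 had none, beside 23.3% of all protein-coding genes, whose windows are shorter at the median.

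Of the 343 distal rows, 27 were open in all 5 libraries (7.87%), beside 10.8% of the 68629 distal rows of all protein-coding genes. Another 32 were open in the 3 DA libraries only (9.33%), beside 14.6%, 1 was open in the 2 5-HT libraries only (0.292%), beside 0.433%, and 283 had other patterns (82.5%), beside 74.2%. In the DA libraries 74 rows were open in all 3, and the 32 DA-only rows made up 43.2% of these (95% Wilson interval 32.6 to 54.6%), beside 42.6% for all genes. At least 1 DA-only distal row was found for 14 of the 37 members, beside 27.2% of all genes, and the median window of the members (76.8 kb) was longer than that of all genes (35.4 kb). Single libraries moved these numbers, since without DA replicate 1 there were 68 DA-only rows and 116 rows open in the remaining DA libraries. The 1 row open in 5-HT libraries only became 3 when DA replicate 2 was left out, and 8 or 19 with either the first or the other 5-HT replicate left out.

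Of the 283 mixed rows, 120 were found in DA replicate 3 alone, which is 49% of its 245 member rows, whereas rows found in that library alone made up 24.4% of its distal rows over all genes. The share was also higher for the members in DA replicate 1 (9.09% beside 4.99%), 5-HT replicate 1 (24% beside 12.9%) and 5-HT replicate 2 (15.6% beside 8.15%), but not in DA replicate 2 (25.8% beside 27%). Of the 120 rows, 98 lay in 3 long genes, 41 at Nr3c2, 29 at Thrb and 28 at Esr1. They were weak, with median scores of 3.24, 3.15 and 3.24 and median percentiles of 21.0, 14.9 and 20.9 in that library. Their median widths were 262, 230 and 222.5 bp, beside 274 bp for the mixed distal rows of all genes. They stretched along the genes, at Nr3c2 from 79458603 to 79776288 on chromosome 8 and at Esr1 from 5335627 to 5744070 on chromosome 10. With the 120 rows left aside, a step added after the values were seen, 32 of the remaining 223 rows were DA only (14.3%), 27 were open in all 5 libraries (12.1%) and 163 were still mixed (73.1%). The same removal over all protein-coding genes left 17.4% DA only, 12.9% open in all 5 and 69.1% mixed. The rows of Nr3c2 numbered 60, of which 2 were DA only and none was open in all 5 libraries, and the 47 rows of Esr1 held neither kind.

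**Figure D2:**
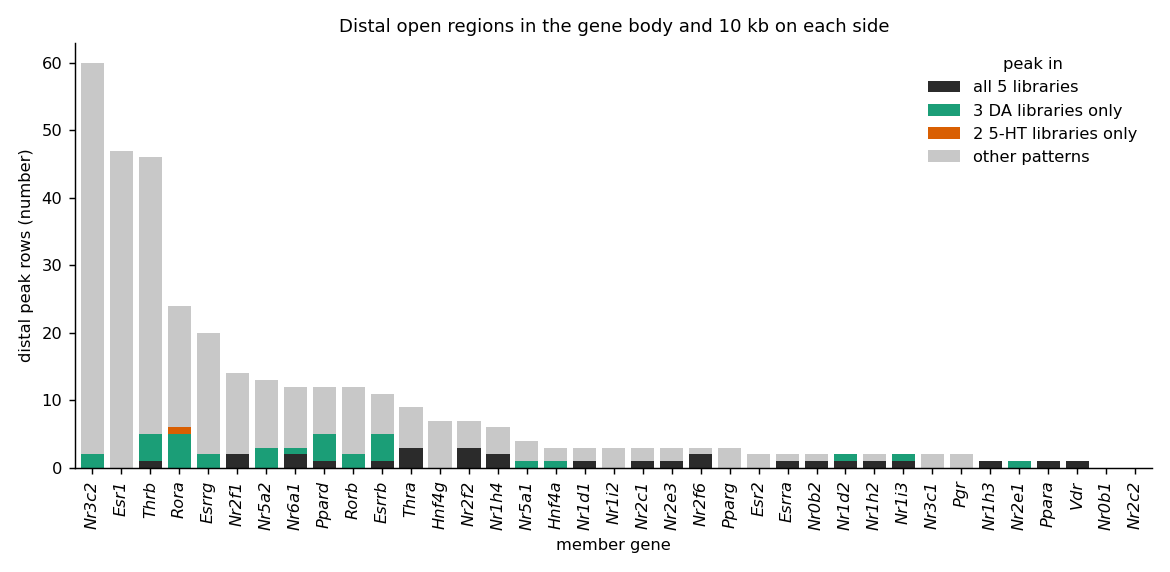
Bars give the number of distal peak rows of each gene, stacked by the libraries with a peak. Nr3c2, Esr1 and Thrb have 60, 47 and 46 rows, mostly of other patterns, while DA-only rows are most numerous at Rora with 5.

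The members with the most DA-only distal rows were Rora with 5, Thrb, Ppard and Esrrb with 4 each and Nr5a2 with 3, followed by Rorb, Esrrg and Nr3c2 with 2 each. Nr1d2, Nr1i3, Hnf4a, Nr2e1, Nr5a1 and Nr6a1 had 1 each. All 5 rows of Rora lay in introns of a gene whose window spans 754 kb, with scores between 3.93 and 6.05 in DA replicate 1, 4.60 and 7.05 in DA replicate 2, and 3.94 and 5.23 in DA replicate 3. In DA replicate 1, 4 of the 5 lay at percentiles from 21.6 to 31.9. Some DA-only rows of other members stood lower in that library. Among them were rows at Esrrb (percentile 4.71), Nr2e1 (5.21), Nr3c2 (7.24), Hnf4a (10.1) and Nr5a2 (13.8). Rora also held the only row open in the 5-HT libraries alone, from 69120844 to 69121037 on chromosome 9 in an intron, with 3.55 in both 5-HT libraries. For Nr5a2 the 3 DA-only rows stood beside a promoter without a peak.

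The window of Ppard, 88.7 kb long, held 12 distal rows, of which 6 were open in all 3 DA libraries, 4 were DA only and 1 was open in all 5 libraries. The 3 intronic DA-only rows scored 5.36, 6.66 and 4.48, then 5.52, 6.50 and 5.35, then 5.33, 8.53 and 5.69 in DA replicates 1, 2 and 3, and the row behind the gene had 5.11, 7.46 and 6.40. In the 5-HT libraries no peak lay inside the gene or behind it, and the open rows were those at the promoter and in front of it.

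**Figure D3:**
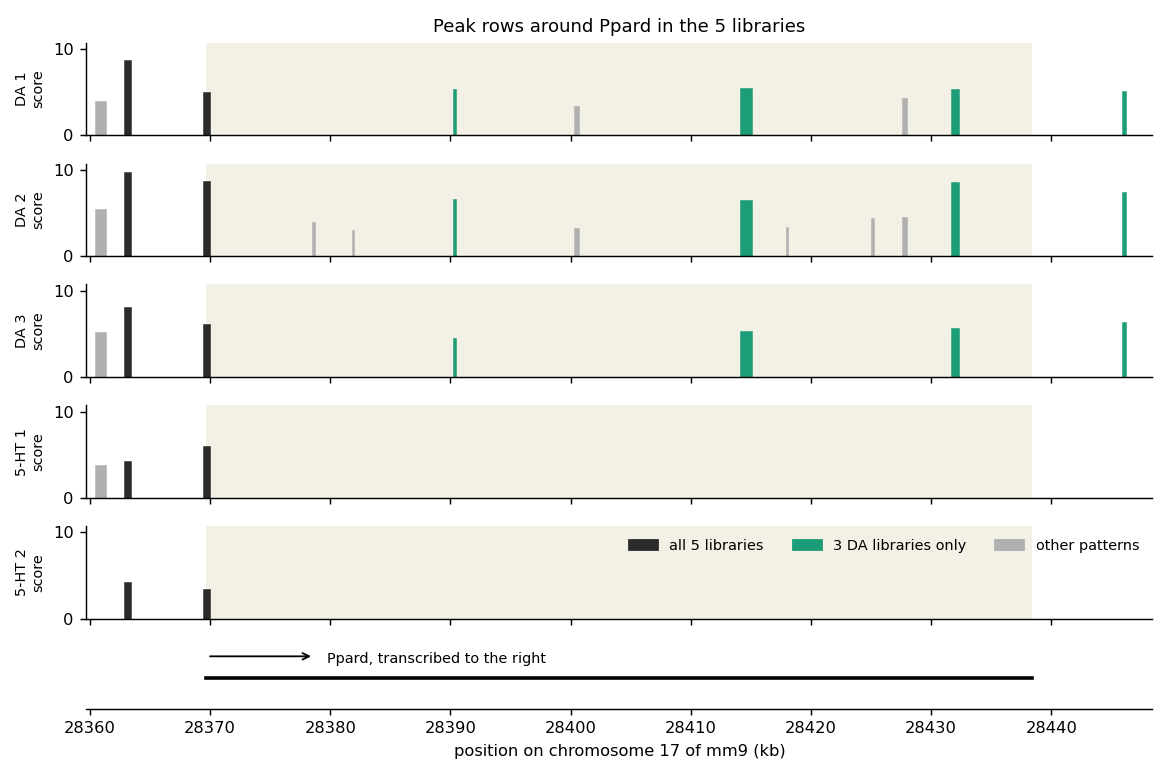
Bars mark the peak rows around Ppard on chromosome 17 of mm9, with the score of each library as the height and the pattern over the libraries as the colour; the shaded part is the gene. The 4 DA-only rows lie within and behind the gene, and the 5-HT libraries have peaks in front of it and at its promoter.

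Ranked by the score in their lowest DA library, the first 6 DA-only distal rows lay in or beside Esrrg, Nr1i3, Nr1d2, Rorb, Thrb and Ppard. The row in an intron of Esrrg, on chromosome 1 from 189798388 to 189798790, had 8.76, 11.0 and 8.50. The row behind Nr1i3, on chromosome 1 from 173150910 to 173151357, had 6.88, 7.91 and 7.27, and lay between Nr1i3 and a row open in all 5 libraries at the promoter of Tomm40l (16.2, 25.4 and 21.6, and 10.8 and 7.12). Nr1i3 itself had no promoter peak. The row in an intron of Nr1d2, on chromosome 14 from 19043447 to 19043695, had 6.38, 6.34 and 7.23, that of Rorb, on chromosome 19 from 19049464 to 19049982, had 6.31, 7.27 and 8.49, and that of Thrb, on chromosome 14 from 18804584 to 18805411, had 5.74, 7.79 and 8.60. For Ppard it was the intronic row from 28414125 to 28415057, whose lowest DA percentile (56.5) was below that of a DA-only row in Rora (63.6).

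Of the 27 distal rows open in all 5 libraries, 13 overlapped a promoter of another gene, beside 49.9% of such rows over all protein-coding genes. The first 6 in the ranking by the lowest DA score were among them. These lay at the promoters of Tomm40l behind Nr1i3, Ocel1 behind Nr2f6 (14.0, 21.9 and 18.6, and 11.0 and 5.86), Madd behind Nr1h3 (12.6, 18.4 and 14.5, and 8.35 and 4.90), the noncoding A830082K12Rik in front of Nr2f1 (11.4, 13.6 and 12.0, and 6.76 and 5.25), Gas2l3 behind Nr1h4 (10.4, 16.7 and 14.7, and 5.73 and 4.39) and Nudc in front of Nr0b2 (11.1, 17.8 and 10.0, and 6.33 and 3.98). Such rows describe the neighbour as much as the receptor gene. None of the 32 DA-only rows overlapped a promoter of another gene, beside 3.93% over all genes, and without such rows 14 distal rows were left that were open in all 5 libraries.

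At 22879 rows per library, 73 of the distal rows kept a peak in at least 1 library. Of these 15 were open in all 5 libraries (20.5%), beside 22% for all genes, and 5 were DA only (6.85%), beside 7.89%. The DA-only rows were those named at Esrrg, Nr1i3, Rorb and Thrb and a further one in Nr3c2, which before rows were removed had 8.46, 9.04 and 9.76 in DA neurons and 3.37 in 5-HT replicate 1. Another 8 rows were then open in the 2 5-HT libraries alone (11%), beside 5.44%, and 3 of them lay at Nr2f2. All 8 had peaks in at least 2 DA libraries in the full lists, 6 of them in all 3, and the rows at Nr2f1 and Nr3c2 had none in DA replicate 1.

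The flank sets where a distal row ends. The rows just inside it lay 9947 bp from Nr1h4 (open in all 5 libraries, at the promoter of Gas2l3), 9863 bp from Nr2f1 and 9700 bp from Nr2c1. Just outside lay rows at 10474 bp from Nr2c2 (open in all 5 libraries), 10501 bp from Nr6a1 and 10591 bp from Nr1d1.

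The bases of the DA-only rows are shown because these rows separate the DA from the 5-HT libraries, and they were searched for the half-sites that the receptors bind. Exons were left out. Each stretch comes from the mm9 genome on the plus strand and covers the central 200 bases of a distal row (180 for Nr1i3), or bases within the promoter for the last 2. Capitals mark the half-site AGGTCA, the steroid half-site AGAACA and the words AGGTGGC and AGGGGGC, which occur in the core of the CTCF motif, on either strand. The CTCF words were chosen after these sequences had been read.
Esrrg, chr1:189798489-189798688: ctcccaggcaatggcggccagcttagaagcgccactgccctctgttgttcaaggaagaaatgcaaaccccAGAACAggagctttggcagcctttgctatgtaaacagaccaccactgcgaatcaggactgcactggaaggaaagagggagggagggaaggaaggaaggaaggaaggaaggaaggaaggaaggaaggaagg
Nr1i3, chr1:173151038-173151217: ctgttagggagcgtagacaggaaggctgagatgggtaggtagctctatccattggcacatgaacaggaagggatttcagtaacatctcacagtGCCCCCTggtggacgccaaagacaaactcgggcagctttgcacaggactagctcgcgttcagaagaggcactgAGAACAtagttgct
Nr1d2, chr14:19043471-19043670: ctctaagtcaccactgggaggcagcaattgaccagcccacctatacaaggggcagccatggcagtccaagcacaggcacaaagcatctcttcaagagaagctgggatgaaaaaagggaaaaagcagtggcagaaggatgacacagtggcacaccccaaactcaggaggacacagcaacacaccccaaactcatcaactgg
Rorb, chr19:19049623-19049822: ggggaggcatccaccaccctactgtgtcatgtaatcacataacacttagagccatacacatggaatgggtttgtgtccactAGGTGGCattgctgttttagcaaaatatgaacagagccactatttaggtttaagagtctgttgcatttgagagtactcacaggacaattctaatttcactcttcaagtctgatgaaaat
Thrb, chr14:18804898-18805097: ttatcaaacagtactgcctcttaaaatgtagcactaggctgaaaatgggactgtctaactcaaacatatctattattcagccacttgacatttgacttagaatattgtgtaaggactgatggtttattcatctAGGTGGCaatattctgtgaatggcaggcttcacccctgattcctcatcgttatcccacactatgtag
Ppard, chr17:28414491-28414690: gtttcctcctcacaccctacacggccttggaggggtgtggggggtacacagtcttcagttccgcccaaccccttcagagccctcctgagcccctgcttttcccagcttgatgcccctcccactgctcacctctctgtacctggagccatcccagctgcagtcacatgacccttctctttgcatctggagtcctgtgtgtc
Nr2e1 promoter, chr10:42303439-42303627: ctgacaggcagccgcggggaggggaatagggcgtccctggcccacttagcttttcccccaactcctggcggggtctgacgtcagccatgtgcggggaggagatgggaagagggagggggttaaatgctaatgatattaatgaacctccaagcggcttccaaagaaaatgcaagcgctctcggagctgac
Esr2 promoter, chr12:77278955-77279154: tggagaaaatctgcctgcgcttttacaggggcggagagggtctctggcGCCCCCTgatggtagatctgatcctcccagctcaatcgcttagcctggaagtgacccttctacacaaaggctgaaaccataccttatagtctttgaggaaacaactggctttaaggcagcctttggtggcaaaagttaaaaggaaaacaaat
None of the 8 stretches holds AGGTCA. The steroid half-site occurs once in those of Esrrg and Nr1i3, and a CTCF word once in those of Nr1i3, Rorb, Thrb and Esr2. The stretch of Esrrg ends in a run of ggaa repeats.

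Over the central 200 bases of the rows, AGGTCA on either strand occurred in 34 of the 343 distal rows of the members (9.91%), beside 11% of the distal rows of all genes. It occurred in none of the 32 DA-only rows, beside 12.9% of the DA-only rows of all genes, and in 5 of the 27 rows open in all 5 libraries (18.5%), beside 7.9%. The longer forms that contain it were rarer. AAAGGTCA, a form bound by Ror proteins, was found in 8 rows (2.33%, beside 1.92%), TAGGTCA in 5 rows (1.46%, beside 1.47%) and TCAAGGTCA, a form bound by the oestrogen-related and Nr5a receptors, in 0 rows (beside 0.264%).

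The steroid half-site AGAACA occurred in 59 member rows (17.2%), beside 16.5% for all genes, and in 5 of the 32 DA-only rows (15.6%), beside 16.3%. Repeats of AGGTCA in the same direction with 1, 2 or 4 bases between them, and in opposite directions with 3 bases between them, were found in 0 of the 343 rows, beside 0.0233%, 0.00146%, 0.00729% and 0.00291% of all distal rows. The median GC content was 49% in the member rows and 49.5% in all distal rows. A match of letters is no measurement of binding.

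Genes that serve these receptors were compared in 6 lists, 1 of them 1 gene short of its plan, whose counts stand beside the 48.4% of all protein-coding genes with promoters open in all 5 libraries. Of 20 coregulators, 17 had promoters open in all 5 libraries, and Ncoa3, Ncoa6 and Hdac3 lacked a peak in 5-HT replicate 2. Among 10 clock partners of Nr1d and Ror, 9 were open in all 5, and Npas2 lacked a peak in 5-HT replicate 2. Of 10 genes of sterol ligands and liver X receptor targets, 8 were open in all 5, while the apolipoprotein gene Apoe had a peak in DA replicates 2 and 3 only (3.12 and 3.33) and the sterol hydroxylase gene Cyp27a1 in DA replicates 1 and 2 only (3.67 and 3.43).

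The list of thyroid hormone supply and response had the fewest genes open in all 5 libraries, 3 of 10. The transporter gene Slco1c1 and the deiodinase genes Dio1 and Dio3 had no promoter peak, and Dio2, whose enzyme makes the active hormone, had one in DA replicates 2 and 3 (3.53 and 3.82). Crym, which encodes a cytosolic thyroid hormone binder, was DA only with 3.85, 3.18 and 3.03. These scores stood at percentiles 18.9, 8.49 and 7.17 of the peaks of their libraries. The last is the lowest score listed in DA replicate 3. Hr, a corepressor and target of the hormone, was open in DA replicates 2 and 3 and in 5-HT replicate 1, and Thrsp in DA replicate 2 and 5-HT replicate 1. Both receptors of the hormone were thus open in all 5 libraries while 7 genes of this list were not.

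Of 10 genes of steroid supply and receptor chaperones, 8 were open in all 5 libraries and the steroid enzymes Hsd11b1 and Cyp19a1 (aromatase) had no promoter peak. Of 10 other nuclear receptor genes, 7 were open in all 5 libraries. Rarg was DA only (4.50, 5.35 and 4.92), Nr4a1 lacked a peak in 5-HT replicate 1, and Rxra, a common dimer partner, had peaks in DA replicates 1 and 2 and in 5-HT replicate 2 (3.97, 4.24 and 2.86).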

How the data were processed

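The files that the authors deposited give a score per library for 131942 rows on mm9, with 0 for no peak and no named scale. The submitters' processing notes name Trimmomatic, Bowtie2, Picard, MACS2 and HOMER, and peaks were called in each library. The chromosome name was misspelled in 1 line and was corrected. RNA-seq samples were not analysed here. One list of related genes and one marker list each lack 1 planned gene, left out after the values were seen for a reason unrelated to them, and the counts leave these 2 genes out. Gene models came from GENCODE for mm9, and all 21 chromosomes with rows were found in the genome with no row past an end. A gene's score in a library is the highest of its promoter rows. Rows were called open in a library at a score above 0, and an overlap of 1 bp was enough. Distal rows were counted once in totals. The members and lists were chosen with earlier results of these data known. Values were given in every library for members with DA-only, 5-HT-only or mixed promoters and for the 5 highest and 3 lowest of those open in all 5. They were also given for the 6 leading distal rows of each kind and for every row open in the 5-HT libraries alone. For the 6 members with most DA-only distal rows (with ties), the number of these rows was given. The scores of all their DA-only rows were given only for Rora, as ranges, and for Ppard. The rest of the members' values, the rows found in DA replicate 3 alone and the rows at 22879 rows per library were added after the values were seen. No test was made across members or rows. The scripts were tested on simulated data and used Python 3.11.15, NumPy 2.4.6, SciPy 1.17.1 and matplotlib 3.10.9. The alternatives limited the number of rows, and changed the score cut-off, the promoter, the TSSs, the overlap, the flank, the merging and the libraries.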

Additional observations from a re-analysis of the deposited data

How the results depend on the processing

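Of the 142 values recomputed under another setting, 97 stayed close to the first (counts within 1.5 times, the percentage within its interval) and 45 moved. Limiting every library to 22879 rows gave 13 members open in all 5 libraries in place of 22, 1 DA only in place of 2, 13 open in no library in place of 8 and 1 open in 5-HT libraries only in place of 0. It gave 5 DA-only distal rows in place of 32, in 5 members in place of 14, 15 distal rows open in all 5 libraries in place of 27, 8 in 5-HT libraries only in place of 1, 25 in all 3 DA libraries in place of 74, and 20.0% DA only among these in place of 43.2%. With 10000 rows per library the numbers were 5, 0, 22 and 1 for promoters, and 1 DA-only distal row in 1 member, 9 rows in all 5 libraries, 11 in all 3 DA libraries and 9.09% DA only. Rows above the median score of their library gave 13 members open in all 5, 4 DA only, 17 DA-only distal rows, 14 in all 5, 0 in 5-HT libraries only and 42 in all 3 DA libraries. These settings keep fewer rows.

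The 5-prime-most TSS left 14 members without an open promoter. Requiring 50% of the row to overlap left 15 such members and 1 DA only. Without a flank, 10 distal rows were open in all 5 libraries, 48 in all 3 DA libraries and 60.4% of these DA only. With a 50 kb flank, 50 rows were DA only, 58 open in all 5, 3 in 5-HT libraries only and 152 in all 3 DA libraries. Leaving out rows in promoters of other genes, a choice made after seeing the data, gave 14 rows open in all 5 libraries and 55.2% DA only. The wider promoter, the TSSs of protein-coding transcripts and merged regions moved no count by over 1.5 times. For changes without a construction that shows the cause, the cause was not tested.

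With each library left out in turn, DA-only promoters ranged from 2 to 6 members and DA-only distal rows from 34 to 68, the highest without 5-HT replicate 1 and without DA replicate 1, respectively. Rows in the 5-HT libraries only ranged from 1 to 19, the highest without 5-HT replicate 2, rows in all 3 (or the remaining 2) DA libraries from 74 to 116, and the DA-only percentage from 45.9 to 60.8%. No paired analysis was possible because the results come from no test and the replicate numbers stand for separate sorts. Read counts were not part of the data, so how many absent peaks are due to depth was not measured. Both 5-HT libraries have fewer peaks than any DA library, and cell type and yield cannot be told apart.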

Other observations

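The words AGGTGGC and AGGGGGC, part of the core of the CTCF motif, were counted after the sequences shown above had been read. Either word occurred in 8 of the 32 DA-only distal rows of the members (25%), beside 11.9% of the DA-only distal rows of all genes and 11.1% of all distal rows. The 8 rows lay at Thrb and Ppard, with 2 each, and at Nr1i3, Nr2e1, Rorb and Nr3c2, with 1 each. In the rows of the members open in all 5 libraries the share was 14.8% (4 of 27), beside 14.9% for all genes, and in the rows of other patterns 6.71%, beside 10.4%. The words were picked because they stood in some of the sequences shown above. The rows of Nr1i3 and Rorb and 1 of the 2 of Thrb are among those sequences. The first share thus rests in part on the rows that led to the words, and it is a description only.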
